A study of Saccharomyces cerevisiae with 137 samples.

Results

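The 26S proteasome genes of budding yeast and the gene of their transcription factor Rpn4 make up 33 of the 6178 open reading frames in the deposited table. The rule lists them by gene symbol and uses no measured value, although the set was proposed with earlier results of these data known. They are 14 genes of the 20S core particle, 18 genes of the 19S regulatory particle, and RPN4. All 33 were found through their locus tags, and none of them overlapped another gene of the RefSeq gene table. Each array held a value for 25 to 33 of them.

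The proteasome is the large protease that unfolds and cuts proteins tagged with ubiquitin. Its 20S core is a barrel of alpha and beta rings, with the cutting sites inside the beta rings. Its 19S particle has a base of ATPases that unfold the substrate and a lid that removes ubiquitin. Rpn4 is a zinc finger activator that binds the promoters of most proteasome genes. It is itself degraded quickly by the proteasome, so that its level falls when the capacity of the machine is high. RPN4 transcription is in turn activated by stress factors such as Hsf1, Yap1, Pdr1 and Pdr3.

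The study grew yeast at 30 °C, moved the flasks to 13 °C for 60 minutes, and then returned them to 30 °C for a further 60 minutes. Each of 137 microarrays with a pair of dyes set 1 later sample against the t0 sample of its own flask, at 15, 30 and 60 minutes of cold (t15, t30, t60) and at 30 and 60 minutes of recovery (t90, t120). Wild type (WT) had 5 flasks and 23 arrays, and the 6 deletion strains had 25 flasks: delCIN5, delGLN3, delHMO1 and delZAP1 with 20 arrays each, delHAP4 with 18 and delSWI4 with 16. The deleted genes encode the transcription factors Cin5, Gln3, Hap4, Swi4 and Zap1 and the chromatin protein Hmo1.

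All strains were grown in rich medium (YEPD). The wild type was BY4741, except for flask 0, which was BY4739 and gave 4 arrays. The deletion strains were of the BY4741 background and received the antibiotic G418, which the wild type did not, so that the deletion and the drug cannot be told apart in any comparison between strains. After washing, slides were coated with PEG except for 30 uncoated arrays, all those of delHAP4 and those of delSWI4 flasks 2 to 4. Coating and strain therefore cannot be told apart in delHAP4 minus wild type, and coating differs in most of delSWI4 minus wild type. No t15 array of delSWI4 was analysed here. The labels give flasks as grown in pairs within a strain, 1 pair a day, and the sources used here do not say which flasks formed a pair. P-values therefore measure the spread between flasks that may not be fully independent.

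Each value is a score: the authors' log ratio, with the shifted sample over its t0 sample, scaled so that every array has nearly the same spread. The scaled median absolute deviation was 0.997 to 1.003 on every array and the median lay between −0.051 and 0.085. A value of 1 is therefore 1 such spread above the t0 sample, not a fold change, and a member's value is its place relative to the other transcripts of the same array. The direction, shifted over t0, is likely from the sample titles and was not stated elsewhere. In delHMO1 it is not settled, because the t15 arrays of flasks 3 and 4, in the same dye orientation, correlated at r = −0.48 over all frames. In all, 72 arrays carried the shifted sample in Cy5 and 65 in Cy3. The 9 GCAT chips were all from wild-type flasks 0 and 1, and the other 128 arrays were Ontario chips. Arrays held values for 5041 to 6158 frames. In addition, 4 arrays stood apart from the rest of their groups in that they looked like arrays of the other phase, cold or recovery. They were picked from these data, so leaving them out can itself widen a difference between cold and recovery. Results that moved are also given without them.

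RPN4 was among the transcripts that rose in the cold, and over the mean of the strains it was near its t0 level after return to 30 °C. Over the mean of the strains, RPN4 stood 2.61 ± 0.25 (SE, 6 strains) above t0 at t15, 2.28 ± 0.22 at t30 and 1.57 ± 0.23 at t60 (limma, flask as a random block, adjusted over all frames: adjusted p = 5.6e-16, 1.0e-15 and 7.5e-09). During recovery it was 0.13 ± 0.23 at t90 and −0.18 ± 0.23 at t120, with adjusted p of 0.75 and 0.62. RPN4 was already highest at the earliest cold time, and at t60 it was 1.07 ± 0.30 lower than at t15 (adjusted p = 0.0128). Without the replicate block that difference was −0.99, with an adjusted p of 0.131.

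The arrays themselves show this order. At t15 the 23 RPN4 values ran from −0.68 through a median of 2.75 to 4.28, and 22 of them were above 0. At t30 the 29 values ran from −0.79 through 2.28 to 4.80, with 28 above 0. By t60 the 27 values ran from −1.33 through 1.72 to 3.39, with 22 above 0. Nearly every array in the cold was therefore above its t0 sample. At t90 the 28 values ran from −2.44 through 0.04 to 2.96, with 14 above 0, and at t120 from −3.26 through −0.25 to 2.72, with 12 above 0. The arrays of recovery lay on both sides of 0, and their range overlapped that of the cold.

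**Figure D1:**
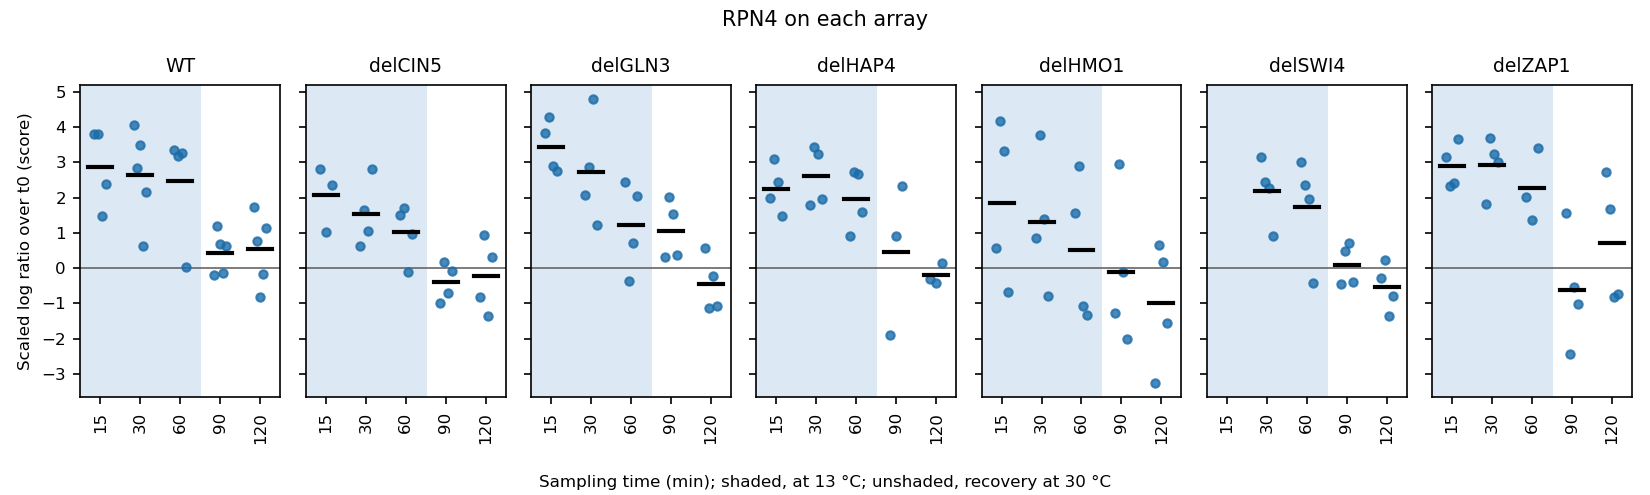
RPN4 score (shifted sample over the t0 sample of the same flask, y axis) against time in minutes (x axis), with 1 panel for each of the 7 strains. Points are arrays, short black lines are the means of each time, and the shaded span is the time at 13 °C. Points in the shade lie mostly above 0, with 22 of 23 arrays above 0 at t15, and the points of recovery lie on both sides of 0.

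Within flasks the change was as regular. The mean of t90 and t120 minus the mean of t30 and t60 was below 0 for RPN4 in 27 of 29 flasks, from −4.18 through a median of −1.80 to 0.81. Where a flask lacked a time, its mean used the time it had. The fitted difference was −1.95 ± 0.19 (limma adjusted p = 2.7e-16). With the 4 arrays that stood apart left out it was −2.11, but they were picked for looking like the other phase, so this is no independent check. The shifted sample's dye moved with the level at t60: the mean was 2.20 over the 15 arrays with that sample in Cy5 and 0.78 over the 12 with it in Cy3. At t15 these means were 2.80 and 2.39, and a fit with the dye as a term gave 1.55 at t60.

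In wild type, the RPN4 scores at t15 were 3.81, 3.81, 1.48 and 2.40 in flasks 1 to 4. At t30 they were 4.07, 2.84, 3.49, 0.64 and 2.15 in flasks 0 to 4. At t60 they were 3.35, 3.18, 3.25 and 0.04 in flasks 0 to 3. Each of these values was above 0, and flask 3 was the lowest at each of the cold times. The shifted sample was in Cy5 in flasks 0 to 2 and in Cy3 in flasks 3 and 4. At each cold time every Cy3 value was below every Cy5 value, so flask and dye cannot be told apart here. At t90 RPN4 read −0.18, 1.20, 0.67, −0.13 and 0.63 in flasks 0 to 4, and at t120 it read 1.73, 0.78, −0.81, −0.16 and 1.14. The fitted wild-type levels of RPN4 were 2.98 ± 0.49 at t15, 2.64 ± 0.45 at t30 and 2.45 ± 0.49 at t60 (limma adjusted p = 0.00026, 0.00021 and 0.0011). When flasks 0 and 1, which were on GCAT chips, were dropped, RPN4 at t60 was 1.73 with an adjusted p of 0.157. That left only flasks 2 and 3 at t60, and it also removed the BY4739 flask and changed the balance of dyes. Chip, background and dye cannot be told apart in this change.

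The deletion strains showed RPN4 above t0 in the cold as well. At t15 RPN4 stood at 2.21 in delCIN5, 3.46 in delGLN3, 2.26 in delHAP4 and 2.89 in delZAP1, all past the threshold in limma. In delGLN3 the 4 flasks of t15 ran from 2.75 to 4.28, and in delZAP1 from 2.32 to 3.67, each well clear of 0. The delHAP4 call at t15 was lost without flask 3 (2.19) and the delZAP1 call without flask 5 (2.64). At t30 it rose in 5 of the 6 deletion strains, from 1.54 in delCIN5 through 2.19 in delSWI4, 2.60 in delHAP4 and 2.75 in delGLN3 to 2.94 in delZAP1. The delCIN5 call was lost in 3 of the 4 fits that each leave out 1 flask, with values of 1.11 to 1.84, and the delZAP1 call was lost without flask 4 (2.84).

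By t60 RPN4 passed the threshold in 3 deletion strains, at 1.97 in delHAP4, 1.73 in delSWI4 and 2.23 in delZAP1. The delZAP1 value (adjusted p = 0.044) ran from 1.62 to 2.61 when 1 flask was left out, and the call was lost in 3 of those 4 fits. The delSWI4 call was lost without flask 1 (1.30) or flask 2 (1.52) and the delHAP4 call without flask 3 (1.74). In delCIN5 the level was 1.03 (adjusted p = 0.11) and in delGLN3 1.14 (adjusted p = 0.26), neither past the threshold. delHMO1 gave RPN4 values of 0.57, 4.18, 3.33 and −0.68 in its 4 flasks at t15, the widest spread of any strain at that time. No time passed the threshold there, with fitted levels of 1.85, 1.30 and 0.51 at t15, t30 and t60. With the sign of flask 2 turned, these RPN4 levels in delHMO1 were −0.24, −0.58 and −0.94, and with the sign of flask 4 turned they were 2.19, 1.70 and 1.18, so that their direction there is not settled either. RPN4 did not pass the threshold at t90 or t120 in any of the 7 strains. That does not show a return to t0 in each strain. In delGLN3 at t90 it was 1.11 (limma adjusted p = 0.33), near its t60 level of 1.14. All 4 delGLN3 flasks were above 0 at t90, from 0.32 to 2.01.

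Recovery minus cold was negative for RPN4 in every strain's fit: −2.05 in WT, −1.60 in delCIN5, −1.61 in delGLN3, −2.27 in delHAP4, −2.19 in delSWI4 and −2.53 in delZAP1, all past the threshold in limma. In delHMO1 it was −1.46 with an adjusted p of 0.16, and −1.72 with an adjusted p of 0.037 without the 2 arrays of flask 3 that stood apart. Those arrays were picked for looking like the other phase, so the second value is no independent check. Turning the arrays of flask 2 gave −0.69 and turning those of flask 4 gave −1.10. The delGLN3 call was lost in 3 of 5 fits without 1 flask, with values of −1.89 to −1.19, and the delHAP4 call was lost without flask 2, at −1.38. The delZAP1 call was lost without flask 5, at −1.91.

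The 32 subunit genes had smaller scores than RPN4 in the cold, and most of those that rose encode the 19S particle. At t15, 8 of the 33 members rose over the mean of the strains and none fell, where 23.9% of all frames rose and 23% fell. That share of members is near the background. The subunits among them were RPT3 at 1.13, RPN5 at 0.95, RPT5 at 0.69, RPN3 at 0.54, PUP3 at 0.51, RPN11 at 0.42 and PRE7 at 0.39, and 11 members had an unadjusted p below 0.05. At t30, 8 rose and 2 fell, against 28.1% and 26.8% of all frames.

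At t60, 13 of 33 members rose and 2 fell, where 28.5% of all frames rose and 26.0% fell. The median of the 32 subunits was 0.28, with 25 of them positive, beside a median of 0.02 over all frames tested. The median was 0.09 at t15 and 0.13 at t30.

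The base ATPases, which ring the entry to the core and unfold substrates, held 4 of the risers among their 6 genes at t60. RPT5 was 1.12 ± 0.21 (adjusted p = 3.6e-06) and RPT3 0.94 ± 0.17 (adjusted p = 1.7e-06). RPT2, whose product helps to open the gate of the core, was 0.53, and RPT6 was 0.36. RPT1 and RPT4 did not pass the threshold.

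Over the 28 arrays of t60, RPT5 ran from −2.34 through 1.20 to 2.91, with 24 above 0. RPT3 ran from −1.27 through 1.10 to 2.91, with 21 above 0. Wild-type RPT5 read 1.23, 1.26, 1.25 and 1.82 in flasks 0 to 3, with flask 3 above the others. Wild-type RPT3 read 0.21, 2.01, 1.83 and 1.89, with flask 0 apart from the others.

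Of the 4 base genes that are not ATPases, RPN2, a scaffold of the base, rose at t60 to 0.46. RPN1, the other large scaffold, and the ubiquitin receptors RPN10 and RPN13 did not pass the threshold. Their group median was 0.32.

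The lid held 5 risers among 8 genes at t60, with a group median of 0.44. RPN5, a scaffold subunit of the lid, stood at 1.15 ± 0.24 (adjusted p = 3.1e-05), and RPN11, the deubiquitinase of the lid, at 0.73 ± 0.14 (adjusted p = 3.3e-06). RPN3 was 0.50, RPN6 was 0.44 and RPN8, the partner of RPN11, was 0.44. Over the 28 arrays RPN5 ran from −4.12 through 1.41 to 3.50, with 23 above 0, while RPN11 ran from −0.75 through 0.72 to 2.16, with 24 above 0. By strain the RPN5 means at t60 were 1.96 in delCIN5, 1.71 in delHAP4, 2.04 in delSWI4 and 2.06 in delZAP1, but 0.35 in delGLN3 and −0.98 in delHMO1. In wild type RPN5 read 0.05, 1.17, 1.37 and 1.22 in flasks 0 to 3, and RPN11 read 0.79, 1.07, 1.27 and 0.96.

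The core genes were divided at t60. In the beta rings, PUP3 rose to 0.67 ± 0.17 (adjusted p = 0.00058), and its wild-type flasks 0 to 3 read 1.37, 1.03, 1.44 and 1.35. PRE3, the beta subunit with caspase-like activity, fell by 0.64 ± 0.18 (estimate −0.64, adjusted p = 0.0018). Its 28 arrays ran from −2.88 through −0.41 to 0.96, and only 5 were above 0. PUP1, the beta subunit with trypsin-like activity, was at −0.37 ± 0.16 with an adjusted p of 0.049, and at −0.13 with an adjusted p of 0.515 when delHMO1 was left out. PRE2, the subunit with chymotrypsin-like activity, did not pass the threshold at t60.

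In the alpha rings SCL1 rose to 0.40 at t60 and the other 6 genes did not pass the threshold. The medians were 0.14 for the alpha genes and 0.25 for the beta genes. In all, 10 of 18 genes of the 19S particle rose at t60 with a median of 0.40, and 2 of 14 core genes rose and 2 fell with a median of 0.15. The difference between the particles was not tested.

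**Figure D2:**
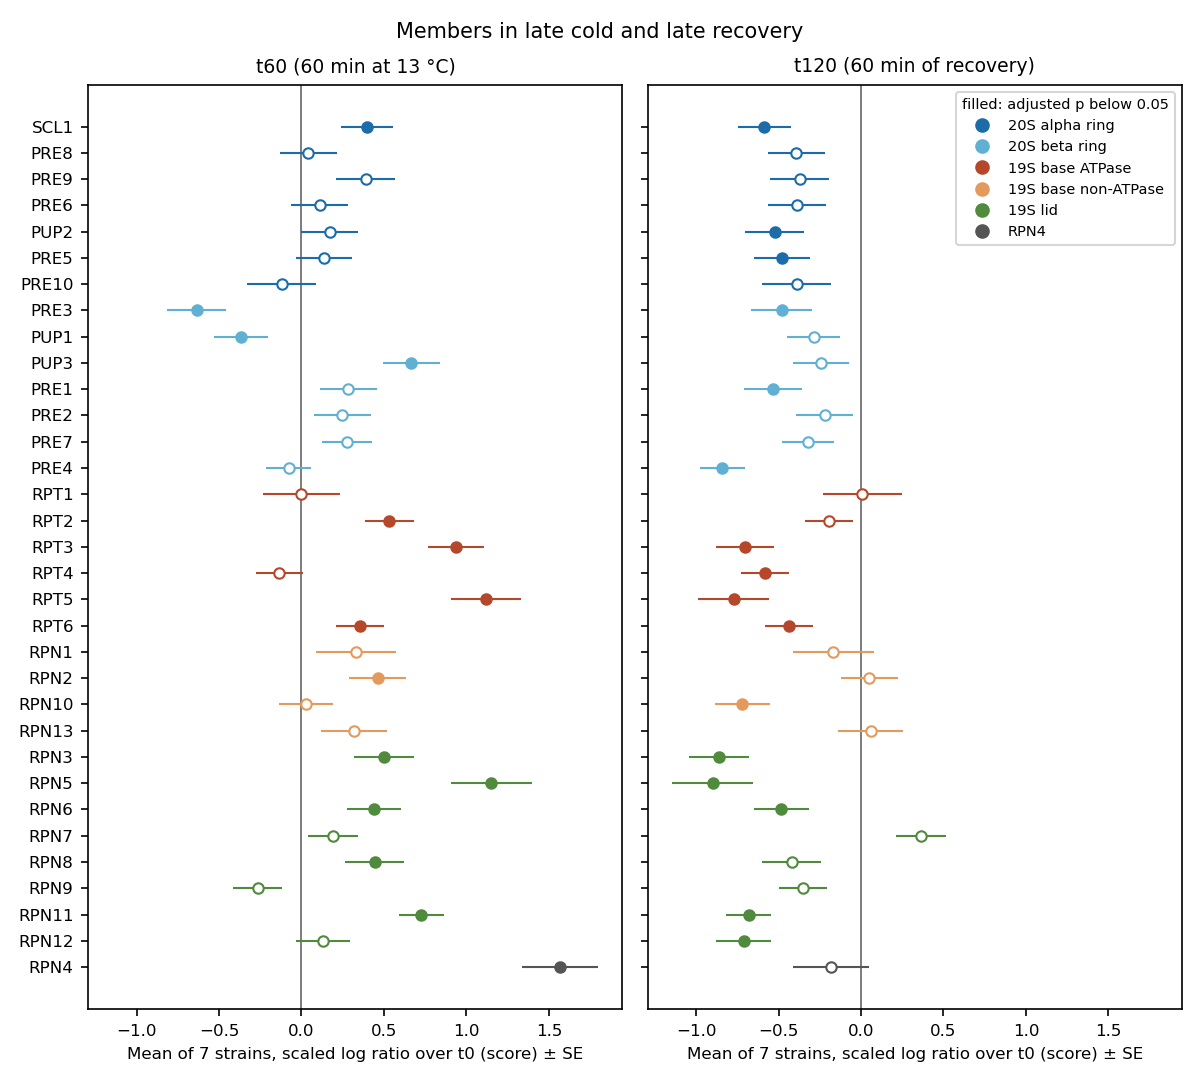
Mean score of the 7 strains with its standard error (x axis) for each of the 33 members (y axis) at t60 and t120, coloured by subcomplex, with filled points where the adjusted p was below 0.05. At t60 the filled points to the right of 0 are RPN4 (1.57) and mostly 19S genes, while at t120 all 16 filled points lie to the left of 0.

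The early recovery samples showed little. At t90, 2 of 32 members tested rose and none fell, against 12.7% and 12.3% of all frames. These were PRE9, the alpha gene without which yeast can live, at 0.57 (adjusted p = 0.011), and PRE2 at 0.45 (adjusted p = 0.046). The count of risers was 0 without flask 4 of delCIN5 (replicate 4), 5 without flask 3 of delCIN5, 4 without flask 2 of delCIN5, flask 3 of delHMO1 or flask 4 of delZAP1, and 6 without delHMO1. PRE8 was not tested because a group had fewer than 2 flasks with a value.

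At t120 the subunit genes were below their t0 level over the mean of the strains. In all, 16 of 33 members (48.5%) fell and none rose, where 10.7% of all frames fell and 12.5% rose, and 23 members had an unadjusted p below 0.05. The median of the 32 subunits was −0.43, with 28 of them negative, beside 0.00 over all frames. The strains differed in size. The subunit median was −0.71 in delHAP4, −0.84 in delSWI4 and −0.88 in delZAP1. It was −0.20 in WT, −0.19 in delCIN5, −0.22 in delGLN3 and −0.23 in delHMO1, where no member passed the threshold at t120. RPN4 itself was not among the 16.

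The core and the regulatory particle were both below t0 at t120 over the mean of the strains. PRE4, a beta subunit, fell by 0.84 (−0.84 ± 0.14, adjusted p = 4.5e-07). The other core genes that fell were SCL1 (−0.59), PRE1 (−0.53), PUP2 (−0.52), PRE3 (−0.48) and PRE5 (−0.48). Of these, PRE3 (limma adjusted p = 0.047) lost its call in 18 of 39 alternatives, PRE5 in 9, PUP2 in 4 and PRE1 in 1. Over 28 arrays PRE4 ran from −3.12 through −0.79 to 0.74, and 23 arrays were below 0. In delZAP1 the 4 PRE4 values were −1.72, −0.97, −0.94 and −1.28, all below 0, whereas the 5 wild-type flasks lay on both sides of 0 at 0.49, 0.48, −0.39, −0.98 and −0.20.

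Among the 19S genes, the ATPase genes RPT5 (−0.77), RPT3 (−0.70), RPT4 (−0.58) and RPT6 (−0.44) and the lid genes RPN5 (−0.90), RPN3 (−0.86), RPN12 (−0.71), RPN11 (−0.68) and RPN6 (−0.48) fell at t120. So did RPN10 (−0.72), the ubiquitin receptor. The RPN6 call was lost in 6 of 39 alternatives and the RPT6 call in 4. RPN3 was below 0 on 23 of 28 arrays, RPN11 on 22 of 28, RPT3 on 22 of 27 and RPN5 on 19 of 28. The member furthest to the other side was RPN7, a lid gene, at 0.36 (adjusted p = 0.072). By subcomplex the medians were −0.39 for the alpha genes, −0.32 for the beta genes, −0.51 for the ATPases, −0.06 for the other base genes and −0.58 for the lid, with 3 of 7, 3 of 7, 4 of 6, 1 of 4 and 5 of 8 genes lower.

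**Figure D3:**
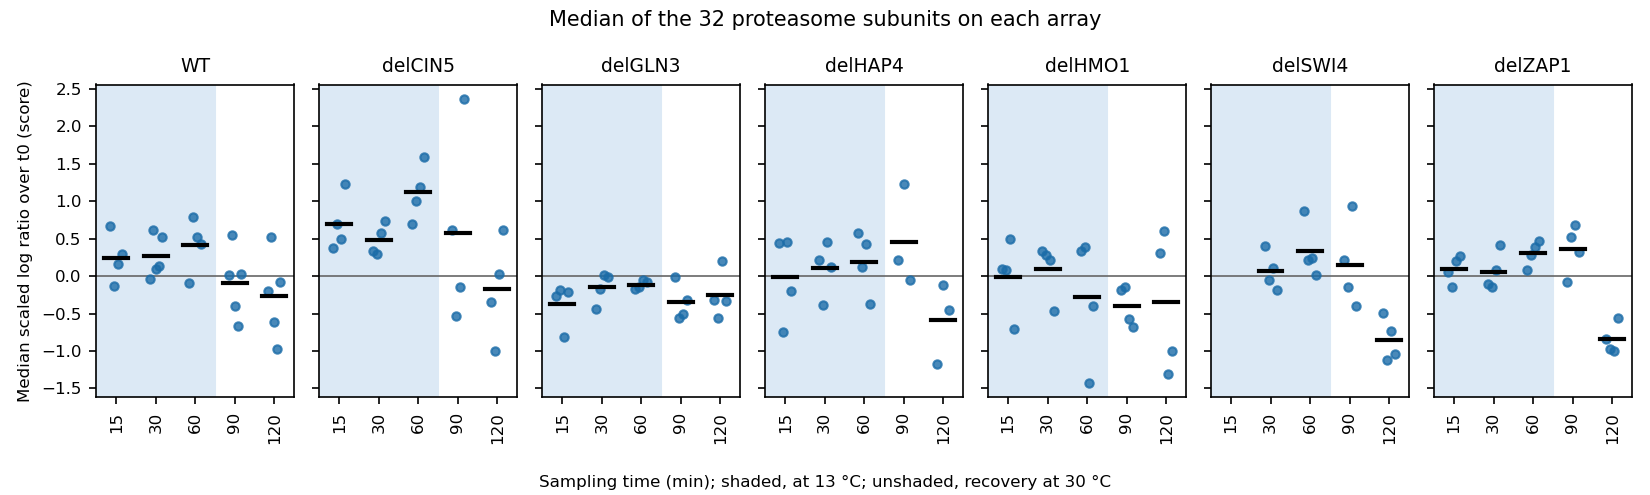
Median score of the 32 proteasome subunit genes on each array (y axis) against time in minutes (x axis), by strain. Points are arrays, short black lines are the means and the shaded span is the time at 13 °C. At t60 the medians run from −1.43 to 1.60 with 20 of 28 above 0, and at t120 from −1.31 to 0.62 with 22 of 28 below 0.

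The subunit genes fell within the recovery period. From t90 to t120, 13 of 32 members fell and none rose, against 4.1% and 4.42% of all frames, and the median change of the subunits was −0.60, with 30 of 31 negative. Those that fell were PRE9 (−0.94), PRE4 (−0.91), RPN8 (−0.86), RPN10 (−0.83), PRE3 (−0.81), SCL1 (−0.79), RPN11 (−0.79), PUP2 (−0.78), PRE1 (−0.71), RPT3 (−0.68), PUP3 (−0.68), PRE2 (−0.67) and RPT6 (−0.60). Here 8 of 13 core genes tested and 5 of 18 genes of the 19S particle passed the threshold. Both times share each flask's t0 sample, and without the replicate block 5 members passed. RPN4 changed by −0.31 over this interval (adjusted p = 0.55). Between t15 and t60 no member rose and 1 fell, RPN4, against 3.73% and 5.07% of all frames.

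Recovery minus cold compares mostly the same flasks, but some flasks lack some of these times. With flask as a random block, the fit therefore also uses differences between flasks. In this comparison 16 of 32 members were lower and 2 higher, where 34.5% of all frames were lower and 35.2% higher. After RPN4 the strongest decreases were in RPT5 (−1.56, adjusted p = 2.2e-13), RPN5 (−1.56, adjusted p = 6.3e-11), RPT3 (−1.22), RPN3 (−0.98), RPN11 (−0.96) and RPN12 (−0.72). RPN5 was lower in 29 of 29 flasks, RPT3 in 28 of 29, and RPN3 and RPN11 in 27 of 29 each. The other lower members were RPN6, RPT2, PRE7, SCL1, PUP3, RPN8, PRE1, PRE5 and RPT6, from −0.57 to −0.33. PRE3 (0.54, adjusted p = 0.0012) and RPN7 (0.30, adjusted p = 0.032) were higher.

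**Figure D4:**
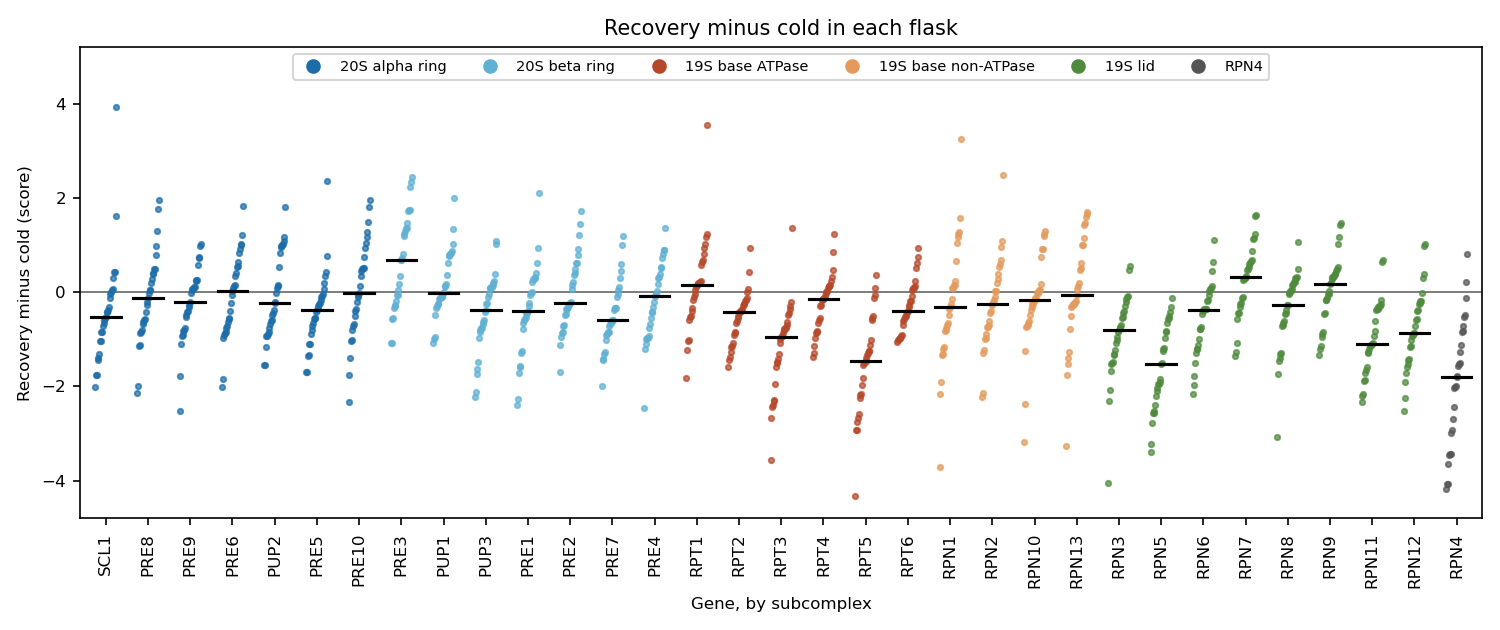
Recovery (mean of t90 and t120) minus cold (mean of t30 and t60) in score units (y axis) for each member (x axis, by subcomplex). Points are flasks, drawn from the lowest to the highest, and the black line is their median. Where a flask lacked a time, its mean used the time it had. RPN4, with a median of −1.80, and RPN5, negative in 29 of 29 flasks, lie lowest by their medians, with RPT5.

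Tested strain by strain with 3 to 5 flasks, fewer members passed. In wild type 2 passed at t15 (RPN4 and RPT3; background 10.8% of frames in either direction), 4 at t30 (with RPN11 and RPT5; 15.1%) and 5 at t60 (with PUP3; 15.7%), all higher. The 5 at t60 became 2 on the Ontario chips alone, 3 without flask 1, and 1 without flask 2 or without flask 3. None passed at t90 (background 5.6%) or t120 (2.69%) in limma, with 3 members at an unadjusted p below 0.05 each time. Recovery minus cold was lower for 7 wild-type members: RPN4, RPN5, RPT3, RPN11, RPN12, RPN1 and RPT5 (19.2%). Here and in the deletion strains these shares count both directions unless a direction is named. In the direction called, 472 of 6172 frames were higher at t15, 582 of 6176 at t30 and 570 of 6172 at t60, and 1184 of 6169 were lower in recovery minus cold. At t15 there was 1 call without flask 2, 3 or 4, and at t120 1 member was lower without flask 1 or flask 2.

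In delCIN5, 3 members rose at t15 (RPN4, RPN5 and RPT3; background 12.2%), 1 at t30 (5.51%) and 3 at t60 (RPT3, PUP3 and RPN8; 11.7%). At t15 there was 1 call without flask 1 or flask 4, at t30 there was none without flask 2, 3 or 4, and at t60 there were none without flask 1 or flask 4 and 1 without flask 3. None passed at t90 (5.14%; 8 at an unadjusted p below 0.05) or t120 (0.891%; 2 unadjusted). Recovery minus cold was lower for 8 of 32 (14.8%), and for 3 without flask 1, 1 without flask 3 and 2 without the replicate block. delCIN5 had the highest subunit median at t60, 1.03, with 31 of 32 genes positive, beside 0.41 in WT.

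For delGLN3, RPN4 rose and PRE5 fell at t15 (background 6.08%) and RPN4 rose at t30 (11.4%). The PRE5 call was lost in 4 of the 5 fits that leave out 1 flask, those without flasks 1, 3, 4 and 5. None passed at t60 (0.494%; 4 unadjusted; 1 lower without flask 2), t90 (1.45%; 5 unadjusted) or t120 (0.626%; 3 unadjusted). Recovery minus cold was lower for RPN4, RPN5 and RPT5 (11.9%), and for 0 without flask 4 and 1 without flask 1 or flask 5. The subunit median at t60 was −0.18.

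The delHAP4 fits called RPN4 alone at t15 (background 11.6%) and t30 (17.9%), and RPN4, RPN5 and RPT5 at t60 (19%). None passed at t90 (0.987%; 6 unadjusted), PRE4 fell at t120 (2.97%), and recovery minus cold was lower for 4 members (17.2%), with 1 without flask 2 and 2 without flask 4. RPN4, RPN5 and RPT5 together became 0 calls at t60 without flask 3 and 1 without flask 4. At t15 there were 2 calls without flask 2 and 0 without flask 3, at t30 there were 2 higher and 1 lower without flask 2, and at t120 there were 0 without flask 1 or flask 2 and 2 without flask 3. The subunit median was 0.21 at t60, with 0.02 to 0.35 when each flask was left out, and −0.71 at t120, with 25 of 32 genes negative.

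No member passed in delHMO1 at any time or in recovery minus cold, and few frames passed at all. The shares were 0.0164% at t15, 0.049% at t30, 0.181% at t60, 0.0987% at t90 and 0.0% at t120. In recovery minus cold 1.16% of frames were lower, and 27 of 6036 were higher. The unadjusted p was below 0.05 for 1, 2, 4, 0, 2 and 4 members in these fits. Without flask 3, 1 member was lower in recovery minus cold. At t60 RPN5 in flasks 1 to 4 read −0.32, 2.47, −4.12 and −1.96.

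The delSWI4 fits called RPN4, RPN5 and RPT5 at t30 (background 18.5%) and at t60 (20.4%). At t30 there was 1 call without flask 1, 2 or 4, and at t60 there was 1 without flask 1 and none without flask 2. None passed at t90 (14.3%; 1 unadjusted). At t120, 8 members fell (RPT3, PRE1, RPN3, RPN11, PRE4, SCL1, RPT6 and PRE9), against 6.95% of frames in either direction and 180 of 6073 frames lower, and 4, 1, 6 and 3 fell without flasks 1, 2, 3 and 4 in turn. Recovery minus cold was lower for 9 members and higher for RPN7, where 21.4% of frames were lower and 21.4% higher; the RPN7 call was lost without flask 2, 3 or 4. The subunit median at t120 was −0.84.

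In delZAP1, RPN4 alone rose at t15 (background 10.5%), 3 members rose and PUP2 fell at t30 (13.9%), and RPN4, RPN5, RPT3 and RPT5 rose at t60 (16.2%). At t15 none rose without flask 5. At t30, 1 rose without flask 3 and none without flask 4, and PUP2 was lost without either. At t60, 1 rose without flask 4 and 2 without flask 5. PRE2 rose at t90 (4.67%) with a limma adjusted p of 0.043. That call was lost in 5 of 11 alternatives, with an adjusted p of up to 0.198 without flask 3. At t120, 8 members fell (RPT3, PRE1, PRE4, SCL1, RPN10, PRE6, RPT5 and RPT4), against 4.11% of frames in either direction and 86 of 6101 frames lower, and 1 fell without flask 2, 3 or 4 and 0 without flask 5. Recovery minus cold was lower for 10 members and higher for PRE3 (17.2% and 16.7% of frames), with 5 lower without flask 5. The subunit median at t120 was −0.88.

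**Figure D5:**
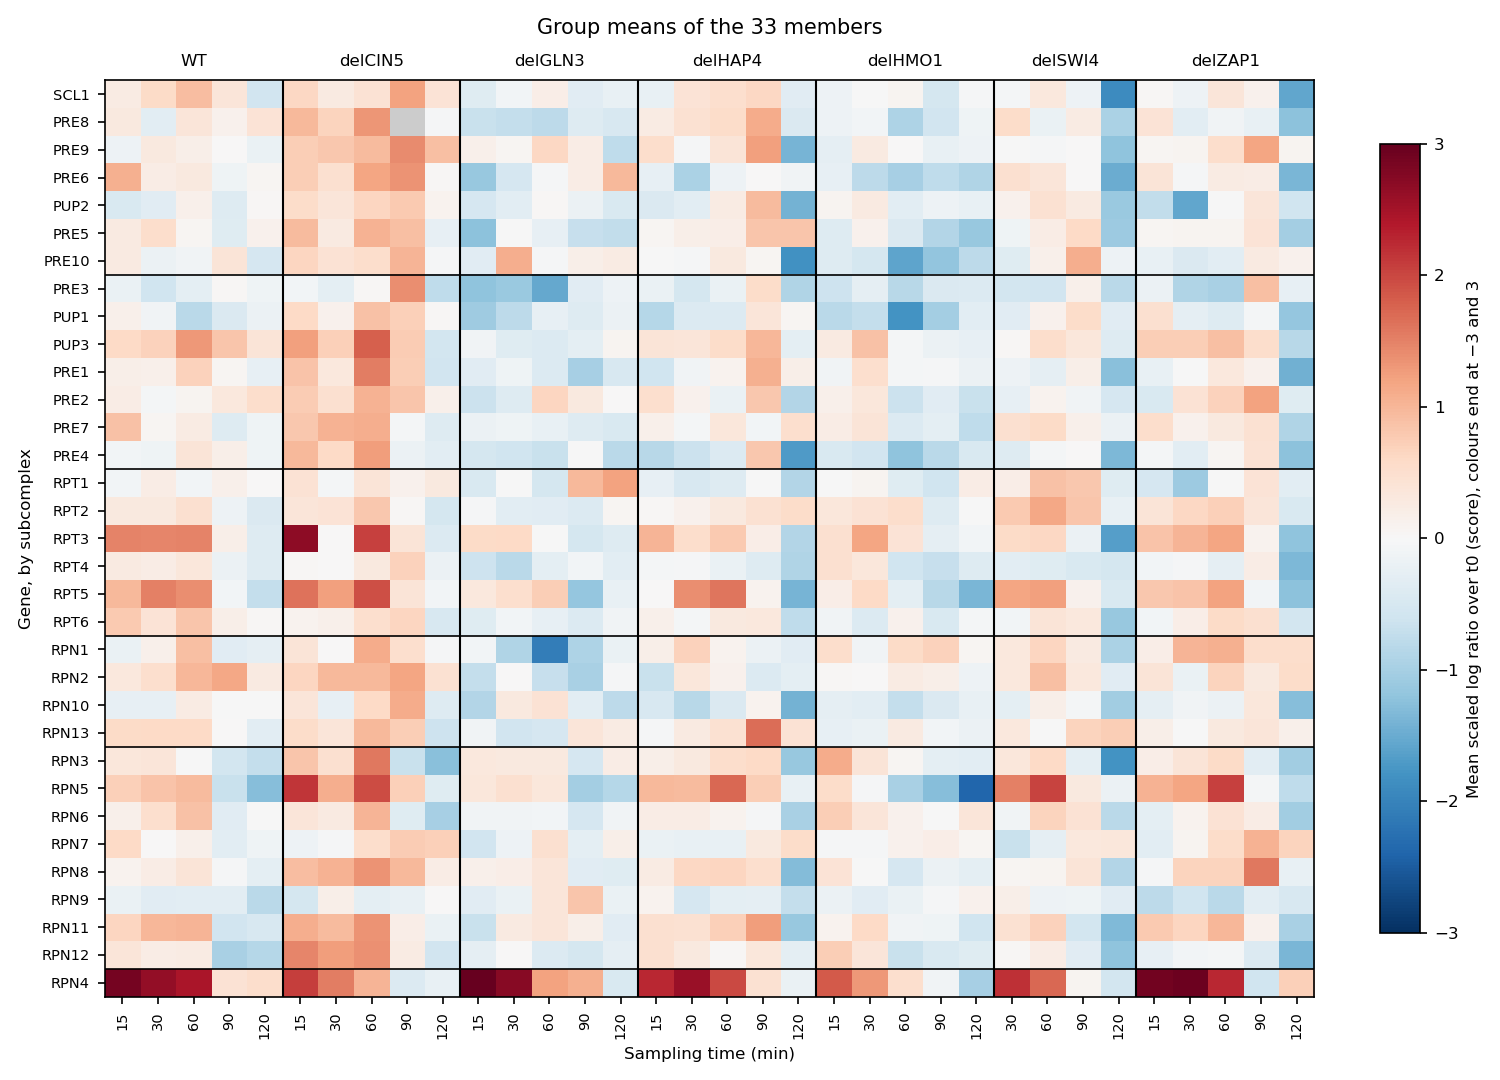
Mean score of each of the 33 members (rows, ordered by subcomplex) in each strain and time (columns), with colours ending at −3 and 3 and a group of fewer than 2 flasks in grey. The RPN4 row is above 0 at t15 to t60 in each strain, with fitted means of 2.61 to 1.57 over the strains, and most subunit rows are below 0 at t120.

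Whether a deletion altered the response was tested by its difference from wild type, once for the cold (t30 and t60 averaged) and once for recovery (t90 and t120 averaged). No member passed in any of the 12 comparisons, which all share the same wild-type flasks. The background was also small. In the cold 0.0% of frames passed for delCIN5, 0.348% for delGLN3, 0.201% for delHAP4, 0.0496% for delHMO1, 0.148% for delSWI4 and 0.0818% for delZAP1. In recovery these shares were 0.0649%, 0.848%, 0.0342%, 0.099%, 1.21% and 0.296%. In limma the unadjusted p was below 0.05 for 2, 6, 0, 4, 0 and 0 members in the cold and 2, 1, 2, 0, 1 and 2 in recovery, in the same order of strains.

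The RPN4 difference from wild type in the cold was −1.63 in delHMO1 (adjusted p = 0.65) and −1.26 in delCIN5 (adjusted p = 0.60), and between −0.61 and 0.04 in the other strains. The median subunit difference in the cold was 0.33 in delCIN5, −0.63 in delGLN3, −0.18 in delHAP4, −0.50 in delHMO1, −0.13 in delSWI4 and −0.24 in delZAP1. In recovery it was 0.45, −0.15, 0.03, −0.27, −0.23 and −0.07. A p that misses the threshold does not show that the strains respond alike.

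Genes that work beside the proteasome were read in the same fits over the mean of the strains. Of the transcription factors upstream of RPN4, YAP1, the oxidative stress activator, rose at t60 to 0.74, and HSF1, the heat shock activator, fell to −0.76, while PDR1 and PDR3 did not pass. In recovery minus cold HSF1 was higher by 1.05 and YAP1 (−0.99) and PDR3 (−1.11) were lower.

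Of 16 assembly chaperones and accessory proteins tested at t60, 6 fell and 1 rose, beside 26.0% and 28.5% of all frames. Of 15 tested in recovery minus cold, 8 were higher and 2 lower, beside 35.2% and 34.5%. POC4 and IRC25, whose products form a chaperone pair for the alpha ring, were at −1.32 and −0.90 at t60. FUB1, whose product binds the proteasome, was at −0.61, and CUZ1, whose product binds the proteasome and Cdc48, was the riser at 0.73. In recovery minus cold POC4 was higher by 1.63 and RPN14, a chaperone of the base, by 0.93, while CUZ1 was at −1.19. At t120, 2 rose and 2 fell, beside 12.5% and 10.7% of all frames, among them HUL5, a ubiquitin ligase bound to the proteasome, at 1.06, and BLM10, an activator of the core, at −0.45.

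Of 33 ubiquitin pathway genes, 9 rose and 7 fell at t60, near the background in both directions. UFD1, a partner of the unfoldase Cdc48, rose to 2.00, and MUB1, a partner of the ligase Ubr2 that marks Rpn4 for degradation, rose to 1.21. CUE1, which holds a ubiquitin-conjugating enzyme at the endoplasmic reticulum, fell to −1.17. At t120, 1 rose and 8 fell, beside 12.5% and 10.7% of all frames, among them RAD23, a shuttle that carries substrates to the proteasome, at −0.66, and UFD1 at −0.68.

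The vacuolar proteases serve the cell's other large route of protein breakdown. At t60, 4 of 7 fell and 1 rose, beside 26.0% and 28.5% of all frames: APE1 was at −2.19, PRC1, carboxypeptidase Y, at −1.31 and CPS1 at −0.87, while PRB1, proteinase B, was at 1.11. At t120, 3 rose and none fell, beside 12.5% and 10.7% of all frames: PEP4, proteinase A, at 1.55, APE1 at 0.97 and PRB1 at 0.84. In recovery minus cold 6 of 7 were higher and none lower, beside 35.2% and 34.5%, with APE1 at 3.25 and PEP4 at 2.06.

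Over the 34 group means of strain and time, the frames most like the subunit median by Pearson correlation among 5923 frames were SWP82 (r = 0.85), PHB2 (0.75), SSE1 (0.74), CCT5 (0.74) and MIA40 (0.73). The frames most like RPN4 were UTP18 (0.90), RER2 (0.89), MTO1 (0.89), UTP25 (0.89) and MCH5 (0.88). The group means of a strain share the t0 samples of its flasks, so these correlations are descriptions only.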

How the data were processed

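Each deposited value is a score for a frame on an array: the authors' scaled log ratio, shifted sample over its t0 sample, made with limma (no version given) per the submitters' processing notes. How backgrounds and spots were treated is not given in those notes. Signal intensities were not analysed here, so precision is limited by how many arrays there are. All 137 columns were mapped to samples by title (unmapped columns 0). Of 6178 frames, 5674 matched a locus tag of the RefSeq gene table (R64) and took its symbol.

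From these values, limma 3.58.1 in R 4.3.3 fitted 1 mean per strain and time with flask as a random block (correlation 0.105 to 0.395 by strain and 0.301 over all arrays), moderated variances and Benjamini-Hochberg adjustment over all frames tested, with a threshold of 0.05 on the adjusted p and a minimum of 2 flasks in each group. Fits were made per strain, for each deletion strain with wild type, and for all 137 arrays (the mean of the strains). Tables and figures used Python 3.11.15. The fits were tested on simulated data. The members and the 4 gene lists beside them (62 genes) were chosen with earlier results of these data known. Members named are those past the threshold, and list genes those with the smallest adjusted p. Flask numbers were not taken to pair strains. Deviations of arrays with the same number correlated at −0.044 to 0.045 by strain on average. Single numbers ran from −0.099 in delCIN5 to 0.110 in delZAP1. A low correlation does not show that the flasks were unpaired. A planned search for the promoter motif of Rpn4 was not run, as no sequence was used here. Alternatives were the block, chip source, dye, centring, missing values, strains and arrays left out, and each flask left out in turn. Robust moderation of the variances and 1 fit of all strains in place of separate fits were also run.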

Additional observations from a re-analysis of the deposited data

Results flagged for a closer look

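In 7 of 87 sets of 4 or 5 flasks the highest or the lowest flask stood apart from the others by Dixon's criterion. Each set was a gene or the subunit median in 1 strain at 1 time. Chance gives about 1 in 20 for a single set, but the sets share arrays and are not independent, so the share cannot be judged against it. In wild type at t60 these were RPN4 in flask 3 at 0.0367, RPT3 in flask 0 at 0.2093, RPN5 in flask 0 at 0.0506 and RPT5 in flask 3 at 1.8168. Flask 3 was the only wild-type flask at t60 with the shifted sample in Cy3, so flask and dye cannot be told apart there. At t120 PUP3 stood apart in wild-type flask 1, at 1.2509. The median of the 32 subunits stood apart in flask 4 of delGLN3 at t15, at −0.8126, and in flask 4 of delHMO1 at t30, at −0.4618.

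The subunit median was above 0 in every flask of one strain and below 0 in every flask of another in 4 cases. At t15 delCIN5 exceeded delGLN3 by 1.068. At t60 delCIN5 exceeded delGLN3 by 1.2361, delSWI4 exceeded it by 0.4475 and delZAP1 exceeded it by 0.4201. These differences between strains were not tested.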

How the results depend on the processing

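RPN4 over the mean of the strains kept its call at t15, t30 and t60 and in recovery minus cold under every alternative run. Of the member calls over the mean of the strains, 10 of 15 at t60, 10 of 16 at t120, 13 of 18 in recovery minus cold and 5 of 13 from t90 to t120 held under every alternative. On the Ontario chips alone the wild-type count at t60 was 2 higher and at t120 it was 1 lower, and over the strains 1 fell at t15, 1 fell at t60, 1 rose at t90 and 1 rose at t120. Without the 4 arrays that stood apart, 1 fell at t15 and 1 at t60. Without delHMO1, 1 fell at t30, 1 fell at t60 and 6 rose at t90. With a dye term, or with arrays centred or also scaled, 1 fell at t30, and with either centring 1 rose at t90. Without the replicate block 1 rose in recovery minus cold, 0 fell from t15 to t60 and 5 fell from t90 to t120. With the flask as a fixed replicate block 16 members were lower in recovery minus cold over the strains and 8 in wild type. With the flask number as a block across strains, 2 members were lower in delGLN3 minus WT in the cold and 1 in delZAP1 minus WT in recovery. With 1 fit of all strains in place of separate fits, 29 member calls were lost and 105 member results stayed the same. Calls lost in limma included RPN4 in delCIN5 at t30 (adjusted p = 0.12) and RPN1 in wild-type recovery minus cold (0.23). RPT5 in delZAP1 was lost at t30 (0.35), t60 (0.14) and t120 (0.24). The causes were not tested.

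With each flask left out in turn, the wild-type counts were 1 to 2 higher at t15, 1 to 5 higher at t60 and 0 to 1 lower at t120. Over the strains they were 0 to 2 lower at t15, 1 to 3 lower at t30, 1 to 2 lower at t60, 0 to 5 higher at t90, 0 to 1 higher at t120 and 1 to 2 higher in recovery minus cold. The subunit median ran from 0.2616 to 0.7218 in delCIN5 at t30, from −0.3524 to −0.0233 in delGLN3 at t30 and from −0.2183 to −0.0783 in delGLN3 at t60. No value changed sign with a call on both sides. The number of arrays and flasks limits the precision, and without intensities it is not known which values came from dim spots.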

Other observations

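The 4 arrays that stood apart from their groups held these values of the subunit median and of RPN4. In delGLN3 flask 2 at t60 they were −0.14 and −0.36, and in delHAP4 flask 4 at t90 they were −0.06 and 2.32. In delHMO1 flask 3 they were −1.43 and −1.08 at t60 and −0.57 and −0.11 at t90.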
